A study of Mus musculus with 8 samples.

Results

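The 34 genes described here encode coagulation and complement proteins that the liver secretes into plasma. They comprise 20 coagulation and fibrinolysis genes and 14 complement genes, named by symbol out of the 24197 genes in the authors' deposited table, and all 34 had entries there. They were read in liver RNA of male CD-1 mice, an outbred strain, at 11 weeks of age. Every mouse, controls included, had been hypophysectomized at 7 weeks, which removes the pituitary and with it the source of growth hormone (GH). The 3 treated groups were given recombinant rat GH once, intraperitoneally, at a dose of 125 ng for each g of body weight, and livers were taken after 30, 90 or 240 min. The control group is called untreated by the series design, while the labels' protocol speaks of a vehicle injection, and if it was not injected, effects of injecting and of GH cannot be told apart. For each of the 4 groups there were 2 RNA pools, of 4 mice each by the table's legend and 8 individual RNA samples behind both pools by the series design.

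Coagulation proceeds through serine proteases that activate one another in sequence, ending with thrombin, which turns soluble fibrinogen into fibrin, while plasmin dissolves the clot. Complement works in a similar way: lectins or antibodies start a protease cascade that cleaves C3 and C4 and ends in a pore built from C5b to C9. Hepatocytes are the main source of most of these plasma proteins, and the fibrinogen genes and C3 are known in the liver as acute-phase genes.

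The table holds the authors' mean FPKM per group (fragments per kilobase, scaled to the depth of the library), once for the gene body and once for introns only, and no value of a single pool. No spread between pools can therefore be given, and a gene is called higher or lower here where the authors' adjusted p was below 0.05. Gene body values follow mature RNA for the most part, and intronic values follow unspliced RNA. The pools held 5940000 to 17120000 reads, as recovered from the smallest steps in the FPKM values, and 3 reads on 1 kb in the shallowest pool correspond to a group mean of 0.253 FPKM, a floor that covers counting error only. All 7 hepatocyte markers reached 1 FPKM, whereas 0 of 4 platelet markers did and of the 4 neutrophil markers Ngp and Camp were listed at 0 in at least 1 group. The neutrophil markers summed to 28.9 FPKM in untreated livers and to 10.6, 41.4 and 17.4 FPKM at 30, 90 and 240 min, nearly all from S100a8 and S100a9, with 1 called higher at 90 min and 2 lower at 240 min; their part in the results was not tested. Summed Kupffer cell and macrophage markers (6 genes in the table) stood at 117 FPKM in untreated livers and at 107, 92.3 and 84.3 FPKM at 30, 90 and 240 min. The hepatocyte markers summed to 52218 FPKM in untreated livers and to 46180, 42488 and 35918 FPKM at the same times. Of the 7, 4 were called lower and 2 higher at 90 min, and 4 lower and 1 higher at 240 min. Most of the sum was Alb, at 40641 FPKM in untreated livers and 27957 FPKM at 240 min. Apob went the other way, with 383 FPKM in untreated livers and 622 FPKM at 240 min. In whole liver, fewer cells of a type and less RNA per cell cannot be told apart.

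All 34 genes averaged at least 1 FPKM over the 4 groups, on a scale corrected for length, and their levels spanned almost 3 orders of magnitude. The 3 fibrinogen chains came first, with means of 4568 FPKM for Fgb, 3266 for Fgg and 2085 for Fga. C3, the central complement protein, followed at 1477 FPKM, then Plg, which encodes plasminogen, at 923, and F2, which encodes prothrombin, at 744. Antithrombin (Serpinc1, 720) and kininogen (Kng1, 583) came next, and the lowest levels were those of Masp1 (13.5), C6 (8.78) and F11 (5.27). Without values per pool, it cannot be said which neighbours in this order differ beyond their spread. The 20 coagulation genes together made up 2.92% of all FPKM in untreated livers and 2.84%, 3.53% and 4.34% at 30, 90 and 240 min. The 14 complement genes made up 0.673% in untreated livers and 0.639%, 0.760% and 0.836% at those times. The shares also depend on the sum over all genes, 455844 FPKM in untreated livers and 430526, 398578 and 427530 FPKM at those times. Complement genes themselves summed to 3069 FPKM in untreated livers and to 2752, 3028 and 3573 FPKM, and so were not higher at 90 min. The coagulation genes summed to 13313 FPKM in untreated livers and to 12235, 14063 and 18556.5 FPKM. Most of the coagulation total was fibrinogen, whose chains alone accounted for 1.83% in untreated livers and 3.29% at 240 min.

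**Figure D1:**
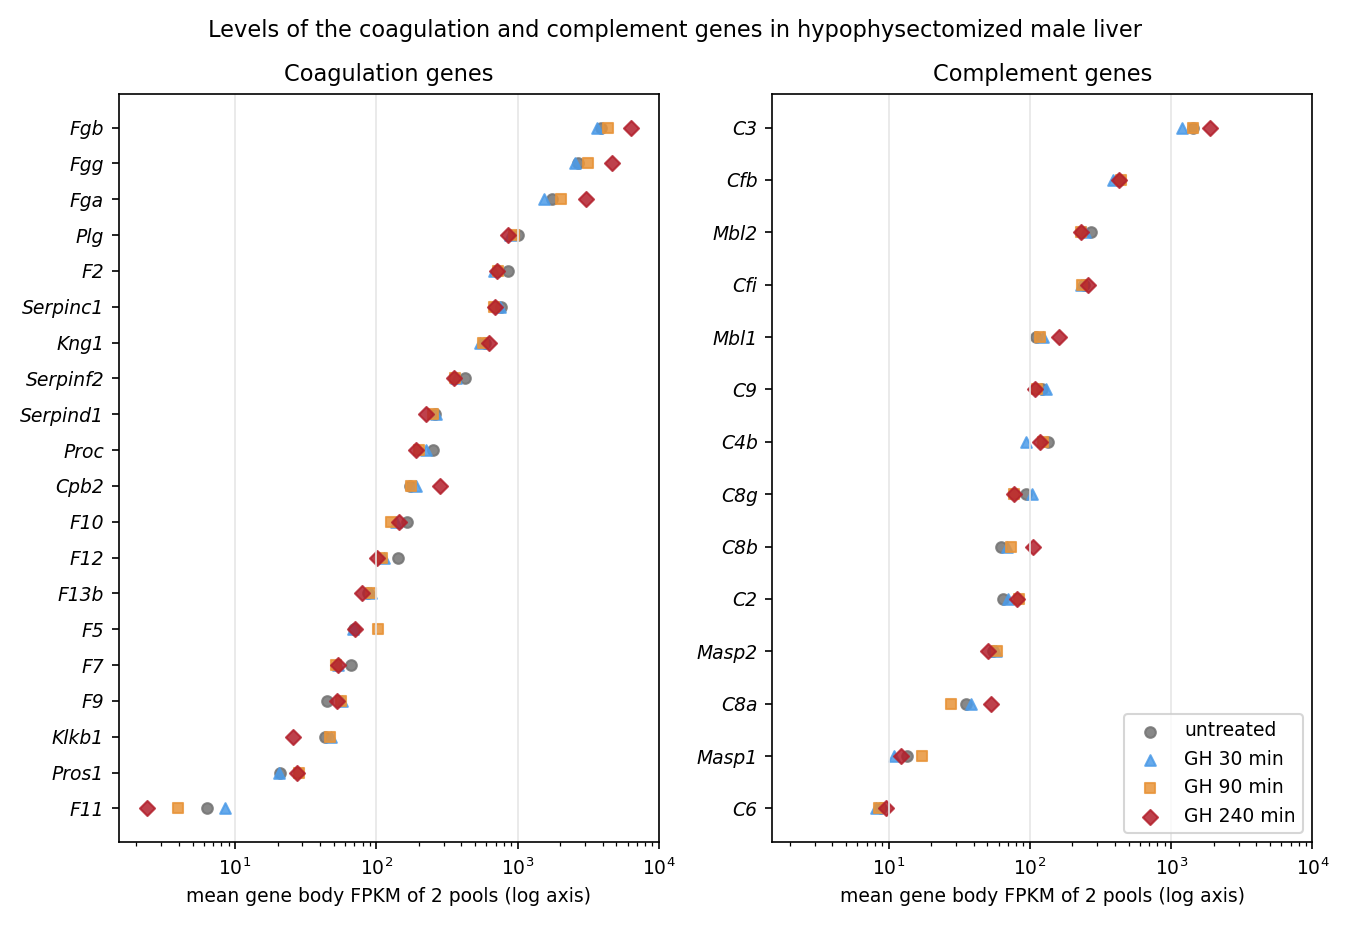
Gene body FPKM (authors' group means, log axis) of the 34 genes, coagulation and complement apart, with 1 point for each of the 4 groups. The points of most genes lie close together beside the differences between genes, which range from 5.27 FPKM (F11) to 4568 FPKM (Fgb) in the mean of the groups.

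All 3 comparisons use the same untreated pools, so their ratios are not independent of each other. At 30 min, 0 of the 34 genes were called over the gene body, and the adjusted p was listed as 1 for each in the authors' deposited table, which gives no unadjusted p. The background was low as well, since 0.224% of the 10736 genes with at least 1 FPKM were called higher and 0.289% lower. At 90 min, 3 of 34 were called higher (Pros1, F5 and C2), against 15.9% of all measured genes, and 5 were called lower (F12, F11, F7, F10 and Proc), against 12.5%. At 240 min, 6 were called higher (Fga, Fgb, Fgg, Cpb2, Mbl1 and C8b), against 14.4% of measured genes, and 4 were called lower (F12, Klkb1, F11 and Proc), against 8.58%. The 9 gene body calls that pointed down all belonged to coagulation, where they fell on 6 genes, while the 3 complement calls all pointed up. Among the 2408 genes with at least 20 FPKM, a class closer to most of these genes, 10.7% were called higher and 27% lower at 90 min, and 13.9% higher and 11.9% lower at 240 min. The median gene body log2 ratio of the coagulation genes was -0.03, -0.05 and -0.23 at 30, 90 and 240 min, beside 0.02, -0.01 and 0.03 over all measured genes. For the complement genes it was 0.06, -0.02 and 0.00055.

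Intronic calls were more frequent. At 30 min only C8b was called higher, beside a background of 0.788% of 9897 genes with measurable introns, and 0 were called lower, beside 0.515%. At 90 min, 11 of the 34 genes were called higher over introns (background 7.9%) and 6 lower (6.61%). At 240 min, 2 were called higher (5.4%) and 11 lower (5.97%). The intronic ratios carry a normalization of their own: at 90 min the quotient of the intronic FPKM means was typically 1.48-fold above the ratio in the authors' deposited table, and at 30 and 240 min 1.10-fold and 1.31-fold above it. An intronic call is therefore a change relative to the introns of other genes, and the FPKM of a gene called lower can stand level with that of the untreated group. In all, 25 of the 34 genes were called over the gene body or introns at some time, 15 of them over the gene body. Of all measured genes, 47.3% of 9897 were called over either measure at some time and 40.3% of 10736 over the gene body. No class of genes at a matched level was counted for introns or for calls at any time, so these shares include many lower genes. The other 9 of the 34 were F2, Serpinc1, Serpind1, Serpinf2, Mbl2, Masp1, Masp2, C4b and C3.

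**Figure D2:**
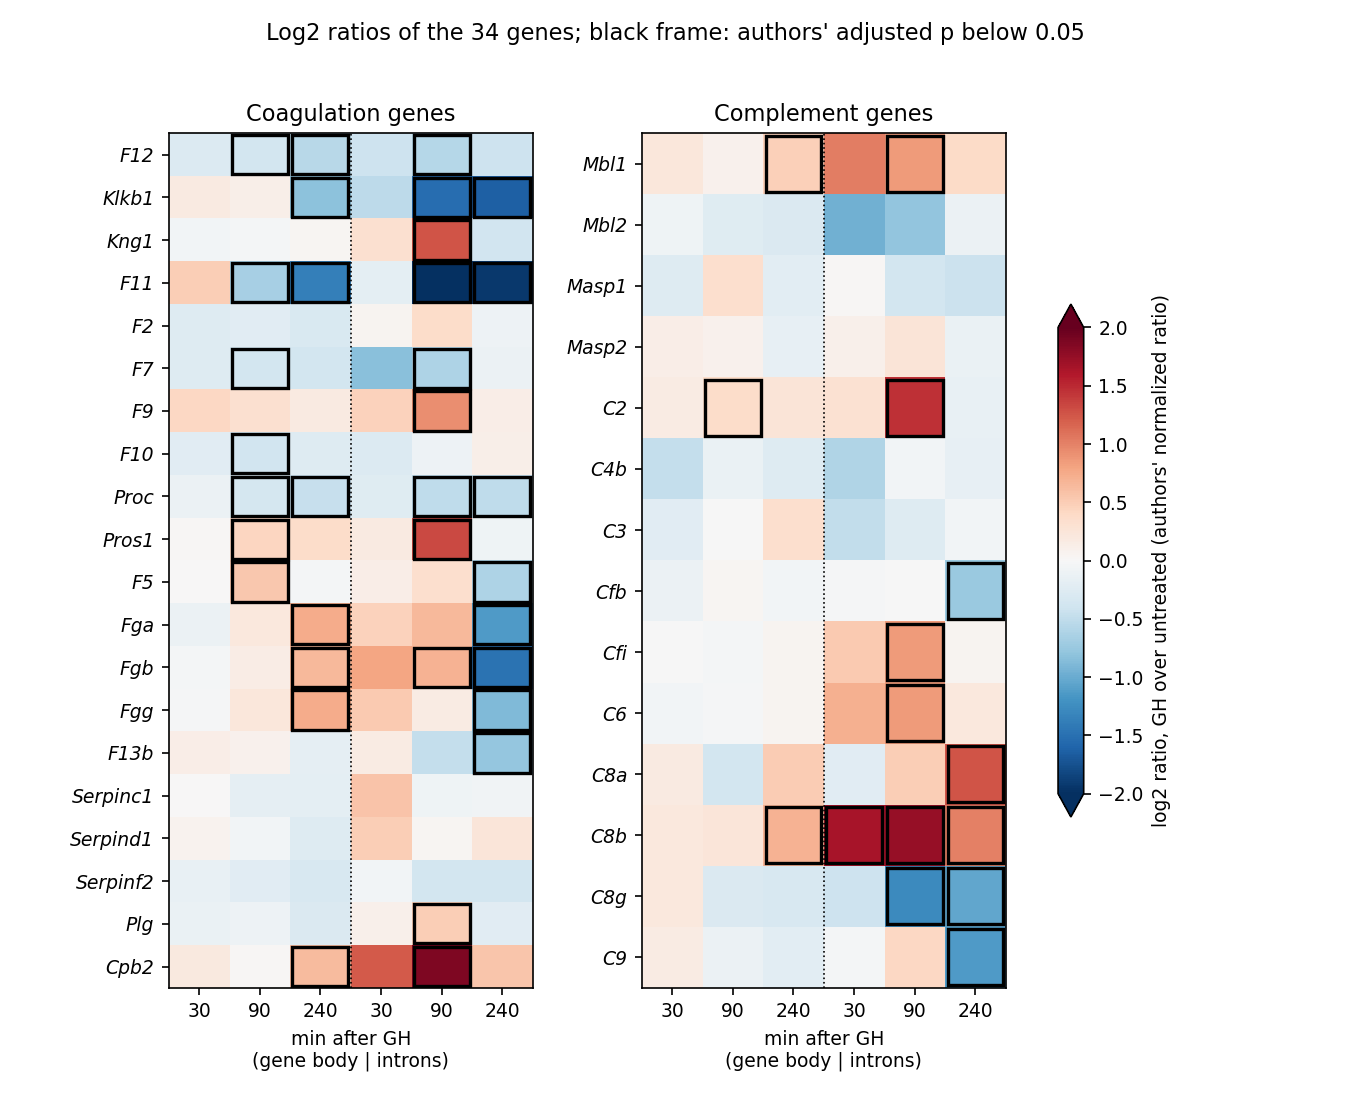
Log2 ratios (authors' normalized ratio, GH over untreated) of the 34 genes at 30, 90 and 240 min, for the gene body (left of the dotted line) and introns (right of it). Red is higher and blue lower in GH-treated livers, and a black frame marks an authors' adjusted p below 0.05; the gene body columns at 30 min hold 0 frames.

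Fibrinogen is a dimer of 3 different chains, encoded by Fga, Fgb and Fgg in a cluster on chromosome 3. In the mm9 coordinates of the table, Fgg lies at chr3:82811817-82818971, Fga at chr3:82830074-82837539 and Fgb at chr3:82846226-82853712, with gaps of 11102 and 8686 bp between them. The 250 bases before each start site are shown because these genes moved together at 240 min. They come from RefSeq on GRCm38.p6, a different build from that of the table, and capitals mark matches on either strand to TTCNNNGAA (a STAT5-type motif), CTGGGAA (an interleukin 6 response type) and TTGCNNAA (a C/EBP type).
Fga (chr3:83025903-83026152, plus strand): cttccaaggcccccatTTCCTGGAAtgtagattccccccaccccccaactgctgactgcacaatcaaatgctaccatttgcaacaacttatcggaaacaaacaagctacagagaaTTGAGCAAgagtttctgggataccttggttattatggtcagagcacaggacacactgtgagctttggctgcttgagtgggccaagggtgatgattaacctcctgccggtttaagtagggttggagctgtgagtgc
Fgb (chr3:83049864-83050113, minus strand): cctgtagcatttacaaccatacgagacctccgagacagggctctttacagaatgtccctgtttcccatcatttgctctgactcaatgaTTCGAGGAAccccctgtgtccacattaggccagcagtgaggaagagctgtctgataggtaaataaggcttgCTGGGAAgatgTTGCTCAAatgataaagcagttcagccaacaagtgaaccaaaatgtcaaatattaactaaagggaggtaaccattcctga
Fgg (chr3:83007474-83007723, plus strand): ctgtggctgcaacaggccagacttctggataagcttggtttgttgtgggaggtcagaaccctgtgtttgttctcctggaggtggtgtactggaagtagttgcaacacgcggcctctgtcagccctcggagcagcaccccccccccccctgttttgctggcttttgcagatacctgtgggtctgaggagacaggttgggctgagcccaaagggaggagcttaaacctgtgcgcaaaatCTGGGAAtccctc
The Fga window holds TTCNNNGAA at 234 to 226 bases before the start and TTGCNNAA at 135 to 128, on the reverse strand. In Fgb the matches are TTCNNNGAA at 162 to 154, CTGGGAA at 91 to 85 and TTGCNNAA at 80 to 73. In Fgg the single match is CTGGGAA at 13 to 7. Of the 34 genes, 26 had a promoter in the RefSeq table, and 6 of these hold TTCNNNGAA (C8a, F9, Fga, Fgb, Masp2 and Pros1), 4 hold CTGGGAA and 7 hold TTGCNNAA. Over 32851 RefSeq promoters the shares are 7.02%, 9.1% and 9.56%, and a match is a run of letters, not evidence of binding. These shares are counted per promoter, while each of the 26 genes counts once, whichever of its promoters holds the match.

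All 3 fibrinogen transcripts were higher at 240 min, by similar factors. Fga stood at 1744 FPKM in untreated livers and at 1544, 2017 and 3034 FPKM at 30, 90 and 240 min, and the 240 min value was 1.68-fold higher in the authors' deposited table (adjusted p = 1.13e-05). Fgb stood at 3914 FPKM in untreated livers and at 3645, 4355 and 6359 FPKM at the 3 times (1.57-fold at 240 min, adjusted p = 0.000408 in the authors' deposited table). Fgg had 2688 FPKM in untreated livers and 2541, 3167 and 4670 FPKM after GH (1.68-fold at 240 min, adjusted p = 7.53e-05 in the authors' deposited table). Each chain was thus highest at 240 min, with log2 ratios at 90 min between 0.15 and 0.23 that were not called. The proportions of the chains moved little: Fga over Fgb was 0.477 at 240 min and 0.446 in untreated livers, and Fgg over Fgb was 0.734 at 240 min and 0.687 in untreated livers.

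The introns of the same genes had the opposite sign at 240 min. Fga introns stood at 46.4 FPKM in untreated livers and at 72.3, 108 and 27.3 FPKM at 30, 90 and 240 min, those of Fgb at 44.9, 85.9, 107 and 20.9 FPKM, and those of Fgg at 68.4, 99.7, 113 and 47.9 FPKM. In the mean of the pools, intronic FPKM was highest at 90 min and below the untreated level at 240 min for every chain. The peak at 90 min depended on the scaling. By the ratio in the authors' deposited table, Fgb was 1.73-fold higher at 30 min and 1.61-fold at 90 min. Fgg was 1.43-fold and 1.11-fold higher by that ratio, and Fga 1.38-fold and 1.57-fold. No chain was called over introns at 30 min. At 240 min the authors' deposited table called all 3 lower, by 2.77-fold for Fgb (adjusted p = 4.9e-14), 2.20-fold for Fga (adjusted p = 3.31e-08) and 1.84-fold for Fgg (adjusted p = 0.000188). At 90 min it called only Fgb higher (1.61-fold, adjusted p = 0.0152), with adjusted p = 0.0527 for Fga and 1 for Fgg. The intronic FPKM at 240 min were 46.7%, 58.8% and 70.0% of the untreated values for Fgb, Fga and Fgg, so the direction at this time did not depend on the scaling of the ratio. F13b, which encodes the carrier subunit of the fibrin-crosslinking factor XIII, had 78.8 FPKM over the gene body at 240 min, against 86.7 FPKM in untreated livers, and was not called at any time. Its introns were called lower at 240 min (log2 ratio -0.77, adjusted p = 0.0353 in the authors' deposited table).

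**Figure D3:**
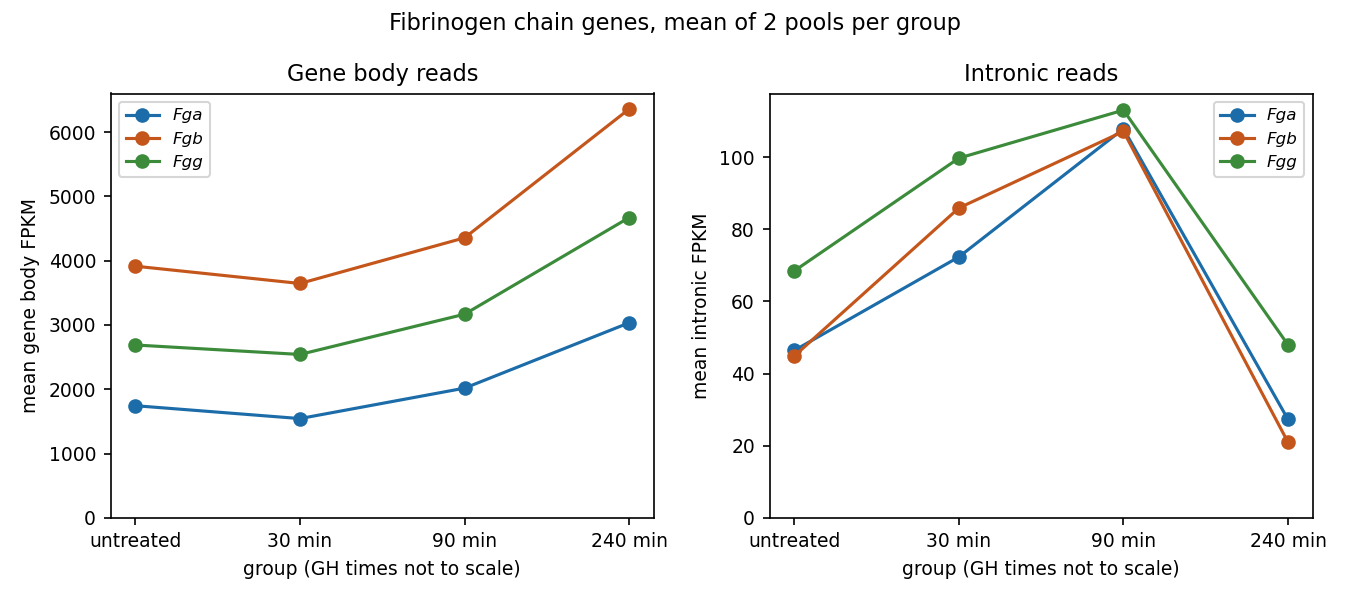
FPKM of Fga, Fgb and Fgg (authors' means of 2 pools per group) in untreated livers and 30, 90 and 240 min after GH, for the gene body and for introns on separate linear axes. Gene body values are highest at 240 min (3034, 6359 and 4670 FPKM), while intronic FPKM values are highest at 90 min (108, 107 and 113 FPKM) and lowest at 240 min (27.3, 20.9 and 47.9 FPKM). By the authors' ratio, which is scaled differently, intronic Fgb and Fgg were higher at 30 min than at 90 min.

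In the contact pathway, factor XII and plasma prekallikrein activate each other on charged surfaces with kininogen as cofactor, and factor XI carries the signal on to factor IX. The genes of factor XI and prekallikrein, F11 and Klkb1, are neighbouring paralogs on chromosome 8, at chr8:46326523-46347385 and chr8:46354806-46380189 in mm9, 7420 bp apart. Their promoters, again 250 bases from RefSeq on GRCm38.p6 with the C/EBP-type match in capitals, are shown because both genes fell.
F11 (chr8:45262032-45262281, minus strand): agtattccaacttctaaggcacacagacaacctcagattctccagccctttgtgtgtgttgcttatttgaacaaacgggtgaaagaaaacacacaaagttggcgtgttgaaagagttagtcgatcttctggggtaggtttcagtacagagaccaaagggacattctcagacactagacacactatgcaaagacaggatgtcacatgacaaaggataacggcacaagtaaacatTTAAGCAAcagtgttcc
Klkb1 (chr8:45294836-45295085, minus strand): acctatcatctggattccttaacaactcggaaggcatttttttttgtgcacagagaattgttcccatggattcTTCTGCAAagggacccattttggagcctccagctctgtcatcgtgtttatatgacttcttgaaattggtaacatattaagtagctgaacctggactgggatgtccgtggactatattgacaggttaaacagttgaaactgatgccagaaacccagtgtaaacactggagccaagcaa
Each holds 1 match to TTGCNNAA on the reverse strand, at 17 to 10 bases before the start in F11 and at 177 to 170 in Klkb1, and no match to TTCNNNGAA.

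F11 fell the most of the 34 genes over the gene body. It stood at 6.28 FPKM in untreated livers and at 8.48, 3.93 and 2.37 FPKM at 30, 90 and 240 min. In the authors' deposited table this was 1.59-fold lower at 90 min (adjusted p = 0.00302) and 2.59-fold lower at 240 min (adjusted p = 7.12e-07). The intronic values were lower at 90 and 240 min too, with 0.145 FPKM in untreated livers and 0.131, 0.0419 and 0.0473 FPKM at the 3 times. They were 5.21-fold lower at 90 min (adjusted p = 8.96e-08) and 3.81-fold lower at 240 min (adjusted p = 9e-05) in the authors' deposited table. Counting error is large here, since these values rest on about 49 intronic reads in the untreated group, 47 at 30 min, 25 at 90 min and 18 at 240 min.

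Klkb1 was not called over the gene body up to 90 min and was lower at 240 min. It had 43.5 FPKM in untreated livers and 47.6, 46.9 and 25.5 FPKM at 30, 90 and 240 min, 1.76-fold lower at the last time in the authors' deposited table (adjusted p = 2.47e-06). Its introns were called lower already at 90 min, by 2.86-fold (adjusted p = 2.71e-06), and by 3.09-fold at 240 min (adjusted p = 1.93e-05 in the authors' deposited table). The intronic levels were 0.259 FPKM in untreated livers and 0.212, 0.131 and 0.113 FPKM after GH, from about 94, 83, 86 and 46 reads. For F11 and Klkb1 alike, the intronic FPKM was lower at 90 and 240 min than in untreated livers, also without the scaling of the ratio.

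F12, which encodes factor XII, had 143 FPKM in untreated livers and 114, 111 and 101 FPKM at 30, 90 and 240 min. The authors' deposited table called it 1.30-fold lower at 90 min (adjusted p = 0.0186) and 1.47-fold lower at 240 min (adjusted p = 0.00254). With the trend in transcript length and GC content removed, its log2 ratio was 0.02 at 90 min and -0.32 at 240 min. Its intronic FPKM was 3.86 in untreated livers and 3.06, 3.86 and 3.85 at the 3 times. The intronic call at 90 min (log2 ratio -0.57, adjusted p = 0.0339 in the authors' deposited table) thus stands beside equal FPKM means. Kng1, which encodes kininogen, the precursor of bradykinin, had 588 FPKM in untreated livers and 546, 573 and 624 FPKM after GH and was not called over the gene body. Its introns rose 2.38-fold at 90 min in the authors' deposited table (adjusted p = 7.94e-16), with 34.1 FPKM at 90 min and 9.68 FPKM in untreated livers, and were at 9.77 FPKM at 240 min. Kng2 is a near-identical copy of Kng1, and reads could have been split between them, so the Kng1 values are uncertain.

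**Figure D4:**
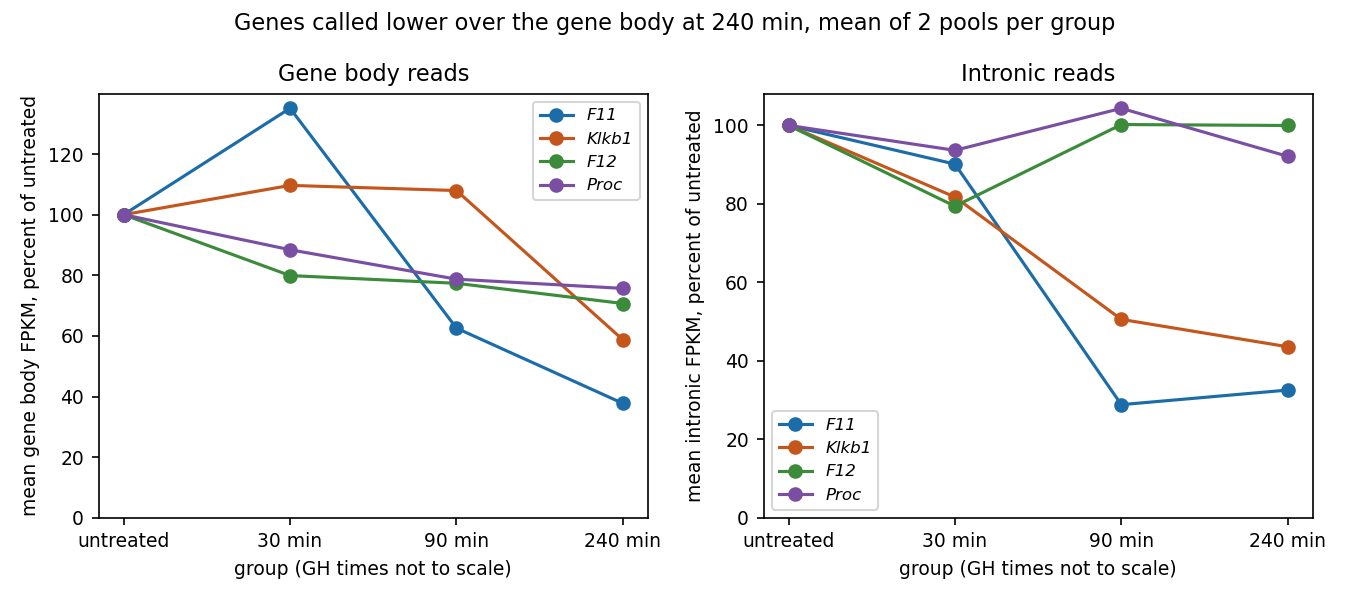
Gene body and intronic FPKM of the 4 members called lower over the gene body at 240 min (F11, Klkb1, F12 and Proc), as a percentage of the untreated mean, in the 4 groups. Gene body values at 240 min are 37.7%, 58.7%, 70.7% and 75.7% of untreated, and intronic values at 240 min are 32.6%, 43.6%, 99.97% and 92.1%.

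The vitamin K-dependent factors are proteases and a cofactor that bind membranes through carboxylated glutamates. Of the 6 genes, 3 were called lower and 1 higher over the gene body at 90 min, where the shares over all measured genes were 12.5% lower and 15.9% higher. Among genes with at least 20 FPKM, the class that holds all 6, the shares at 90 min were 27% lower and 10.7% higher. At 240 min 1 was called lower, beside 8.58% of measured genes and 11.9% of that class. F10, which encodes factor X at the junction of the intrinsic and extrinsic routes, had 166 FPKM in untreated livers and 137, 128 and 144 FPKM at 30, 90 and 240 min. It was 1.30-fold lower at 90 min in the authors' deposited table (adjusted p = 0.00713), with no intronic call. F7, which encodes the protease that tissue factor activates, lies 1497 bp from F10 and had a log2 ratio of -0.36 at 90 min in the authors' deposited table (adjusted p = 0.0448). Its intronic log2 ratio was -0.62 (adjusted p = 0.00815 in the authors' deposited table), at intronic levels of 3.50 FPKM at 90 min and 3.63 FPKM in untreated livers.

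Protein C and its cofactor protein S, which together inactivate factors V and VIII, were called in opposite directions over the gene body at 90 min. With the trend of the ratios with transcript length and GC content removed, both log2 ratios at 90 min were above 0, at 0.03 for Proc and 0.27 for Pros1. In the authors' deposited table Proc, the protein C gene, had log2 ratios of -0.35 at 90 min (adjusted p = 0.0163) and -0.46 at 240 min (adjusted p = 0.0144). Pros1, the protein S gene, stood at 20.8 FPKM in untreated livers and at 20.6, 28.2 and 27.6 FPKM at 30, 90 and 240 min, 1.35-fold higher at 90 min in the authors' deposited table (adjusted p = 0.00531). Its introns rose 2.49-fold at 90 min (adjusted p = 2.73e-07 in the authors' deposited table), with 0.300 FPKM at 90 min and 0.0828 FPKM in untreated livers. The intronic Proc values were called lower at 90 and 240 min (log2 ratio -0.51 at both times, adjusted p = 0.0361 and 0.0122 in the authors' deposited table), with 3.53 FPKM at 90 min, 3.12 FPKM at 240 min and 3.39 FPKM in untreated livers.

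F9, which encodes factor IX, had 45.0 FPKM in untreated livers and 57.6, 56.1 and 52.8 FPKM after GH, with no gene body call. Its introns rose 1.91-fold at 90 min in the authors' deposited table (adjusted p = 0.00168), with 0.498 FPKM at 90 min and 0.176 FPKM in untreated livers, the latter from about 90 reads. Prothrombin (F2) stood at 850 FPKM in untreated livers and at 683, 726 and 718 FPKM at the 3 times, and the authors' deposited table gives adjusted p = 0.165 at 90 min and 0.182 at 240 min. F5 encodes factor V, the cofactor that speeds up thrombin formation by factor X. It had 102 FPKM at 90 min, against 69.9 FPKM in untreated livers, 1.46-fold higher in the authors' deposited table (adjusted p = 3.24e-05), and was at 68.3 FPKM at 30 min and 70.6 FPKM at 240 min. Its introns were called lower at 240 min (1.54-fold, adjusted p = 0.0208 in the authors' deposited table), at 0.263 FPKM against 0.312 FPKM in untreated livers. A non-coding gene, Gm16548, shares 360 bp with the F5 locus and had 5.73 FPKM in untreated livers, and since the strand setting of the counting is not given, its reads cannot be told apart there.

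The protease inhibitors of the serpin family were not called at any time over the gene body or introns. Antithrombin (Serpinc1), heparin cofactor II (Serpind1) and antiplasmin (Serpinf2) had gene body log2 ratios between -0.31 and -0.20 at 240 min, with adjusted p of 0.15 to 0.654 in the authors' deposited table. Serpind1 lies wholly within the span of Pi4ka, which had 7.49 FPKM in untreated livers, so its intronic reads in particular are uncertain. In fibrinolysis, Plg stood at 1006 FPKM in untreated livers and at 889, 942 and 854 FPKM after GH and was not called over the gene body. Its introns rose 1.40-fold at 90 min in the authors' deposited table (adjusted p = 0.0198), with 4.97 FPKM at 90 min and 2.39 FPKM in untreated livers.

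Cpb2 encodes the carboxypeptidase that slows fibrinolysis by removing plasminogen binding sites from fibrin. It was not called over the gene body up to 90 min and was higher at 240 min, with 173 FPKM in untreated livers and 192, 176 and 280 FPKM at the 3 times. The increase at 240 min was 1.56-fold in the authors' deposited table (adjusted p = 0.000224). Its introns stood at 0.410 FPKM in untreated livers and at 0.927, 2.24 and 0.786 FPKM, and their 3.66-fold increase at 90 min (adjusted p = 1.23e-24 in the authors' deposited table) had the smallest adjusted p of any value of the 34 genes. Unlike the fibrinogen chains, Cpb2 was not called lower over introns at 240 min (log2 ratio 0.55, adjusted p = 0.0518 in the authors' deposited table).

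Among the complement genes, the terminal components build the membrane attack pore, in which C8 contributes 3 chains. The gene of its beta chain, C8b, was called higher at every time over introns and at 240 min over the gene body. It had 62.1 FPKM in untreated livers and 69.1, 73.5 and 105 FPKM at 30, 90 and 240 min, 1.63-fold higher at 240 min in the authors' deposited table (adjusted p = 0.00015). Its intronic FPKM was 0.109 in untreated livers and 0.353, 0.555 and 0.288 at the 3 times. In the authors' deposited table these were increases of 3.12-fold (adjusted p = 0.0185), 3.36-fold (adjusted p = 1.15e-11) and 2.02-fold (adjusted p = 0.00442). The untreated intronic level rests on about 71 reads.

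The neighbouring alpha chain gene, C8a, 11130 bp from C8b, had 35.3 FPKM in untreated livers and 38.2, 27.5 and 52.8 FPKM after GH, with adjusted p = 0.187 at 240 min in the authors' deposited table. Its introns rose 2.38-fold at 240 min (adjusted p = 0.000736 in the authors' deposited table), with 0.936 FPKM at 240 min and 0.288 FPKM in untreated livers. The gamma chain gene, C8g, encodes a lipocalin and lies on another chromosome. It stood at 94.2 FPKM in untreated livers and at 104, 77.5 and 77.7 FPKM, without a gene body call. Its introns fell 2.42-fold at 90 min (adjusted p = 6.34e-06) and 2.05-fold at 240 min (adjusted p = 0.00197) in the authors' deposited table, at 3.90 FPKM in untreated livers and 2.78, 2.40 and 2.57 FPKM after GH. The C8g locus shares 943 bp with Fbxw5 (12.1 FPKM in untreated livers), and its few intronic reads, about 135 in the untreated group, can come from either gene.

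The remaining terminal components were not called over the gene body. C6 stood at 8.80 FPKM in untreated livers and at 8.16, 8.60 and 9.56 FPKM, and C9, the subunit that lines the pore, at 121 FPKM in untreated livers and at 131, 112 and 108 FPKM. C6 introns rose 1.80-fold at 90 min in the authors' deposited table (adjusted p = 0.00495), with 0.262 FPKM at 90 min and 0.0994 FPKM in untreated livers. C9 introns fell 2.19-fold at 240 min (adjusted p = 2.5e-08 in the authors' deposited table), with 0.271 FPKM at 240 min and 0.459 FPKM in untreated livers, after 0.908 FPKM at 90 min.

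The lectin pathway starts with mannose-binding lectins, of which mice have a pair, Mbl1 and Mbl2. Mbl1 had 111 FPKM in untreated livers and 125, 119 and 161 FPKM at 30, 90 and 240 min, 1.40-fold higher at 240 min in the authors' deposited table (adjusted p = 0.0143). Its introns rose 1.81-fold at 90 min (adjusted p = 0.00763 in the authors' deposited table), with 1.64 FPKM at 90 min and 0.604 FPKM in untreated livers, the latter from about 64 reads. Mbl2 had 271 FPKM in untreated livers and 247, 230 and 230 FPKM after GH and was not called, with adjusted p = 0.354 at 240 min in the authors' deposited table. Mbl2 was the higher of the pair in every group, by 230 FPKM to 161 FPKM at 240 min and by 271 FPKM to 111 FPKM in untreated livers, and the difference between their responses was not tested. The lectin-associated proteases Masp1 (11.0 to 17.2 FPKM over the groups) and Masp2 (50.6 to 58.2 FPKM) were not called, and Masp2 shares 3100 bp with Tardbp.

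Of the genes whose products form the C3 convertases, C2, the protease of the classical and lectin convertase, was the only one called over the gene body. It had 64.6 FPKM in untreated livers and 69.8, 83.9 and 80.8 FPKM at the 3 times, 1.29-fold higher at 90 min in the authors' deposited table (adjusted p = 0.0141). C2 introns rose 2.76-fold at 90 min (adjusted p = 2.78e-15 in the authors' deposited table), with 6.60 FPKM at 90 min, 1.61 FPKM in untreated livers and 1.97 FPKM at 240 min. Cfb, the paralogous protease of the alternative convertase, lies 86 bp from C2. It had 430 FPKM in untreated livers and 384, 440 and 430 FPKM after GH, without a gene body call, and its introns fell 1.67-fold at 240 min (adjusted p = 2.61e-05 in the authors' deposited table), with 13.6 FPKM at 240 min and 17.3 FPKM in untreated livers. The test of a difference between these neighbours was not run.

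C3 stood at 1426 FPKM in untreated livers and at 1183, 1421 and 1878 FPKM at 30, 90 and 240 min, and its log2 ratio of 0.34 at 240 min was not called (adjusted p = 0.258 in the authors' deposited table). C4b, which supplies the other subunit of the classical convertase, had 135 FPKM in untreated livers and 93.8, 123 and 117 FPKM and was not called. C4b is nearly identical to C4a, so its reads could have been split or lost. Cfi, the protease that degrades C3b and C4b, had 241 FPKM in untreated livers and 231, 235 and 259 FPKM over the gene body without a call. Its introns rose 1.81-fold at 90 min in the authors' deposited table (adjusted p = 3.98e-05), with 1.39 FPKM at 90 min and 0.517 FPKM in untreated livers.

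Ratios across all genes were related to transcript length and base composition, and this touches several of the small gene body changes at 90 min. Over the 10314 measured genes with a matched transcript, the log2 ratio at 90 min had a Spearman correlation of 0.486 with length and -0.507 with GC content; over the 34 genes here the values were 0.357 and -0.478, as a description, since all points come from the same libraries. After this trend was subtracted, the log2 ratio at 90 min was 0.13 for F5, whose transcript of 7430 nt is the longest of the 34, 0.02 for F12, 0.03 for Proc and -0.06 for F7. F11 (-0.63), F10 (-0.22), Pros1 (0.27) and C2 (0.53) kept their sign at 90 min. All 10 genes called at 240 min kept theirs, with 0.72 for Fga, 0.58 for Fgg, 0.44 for Fgb, 0.66 for C8b, 0.52 for Cpb2, 0.48 for Mbl1, -0.27 for Proc, -0.32 for F12, -1.09 for Klkb1 and -1.45 for F11. What produces the trend was not tested.

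**Figure D5:**
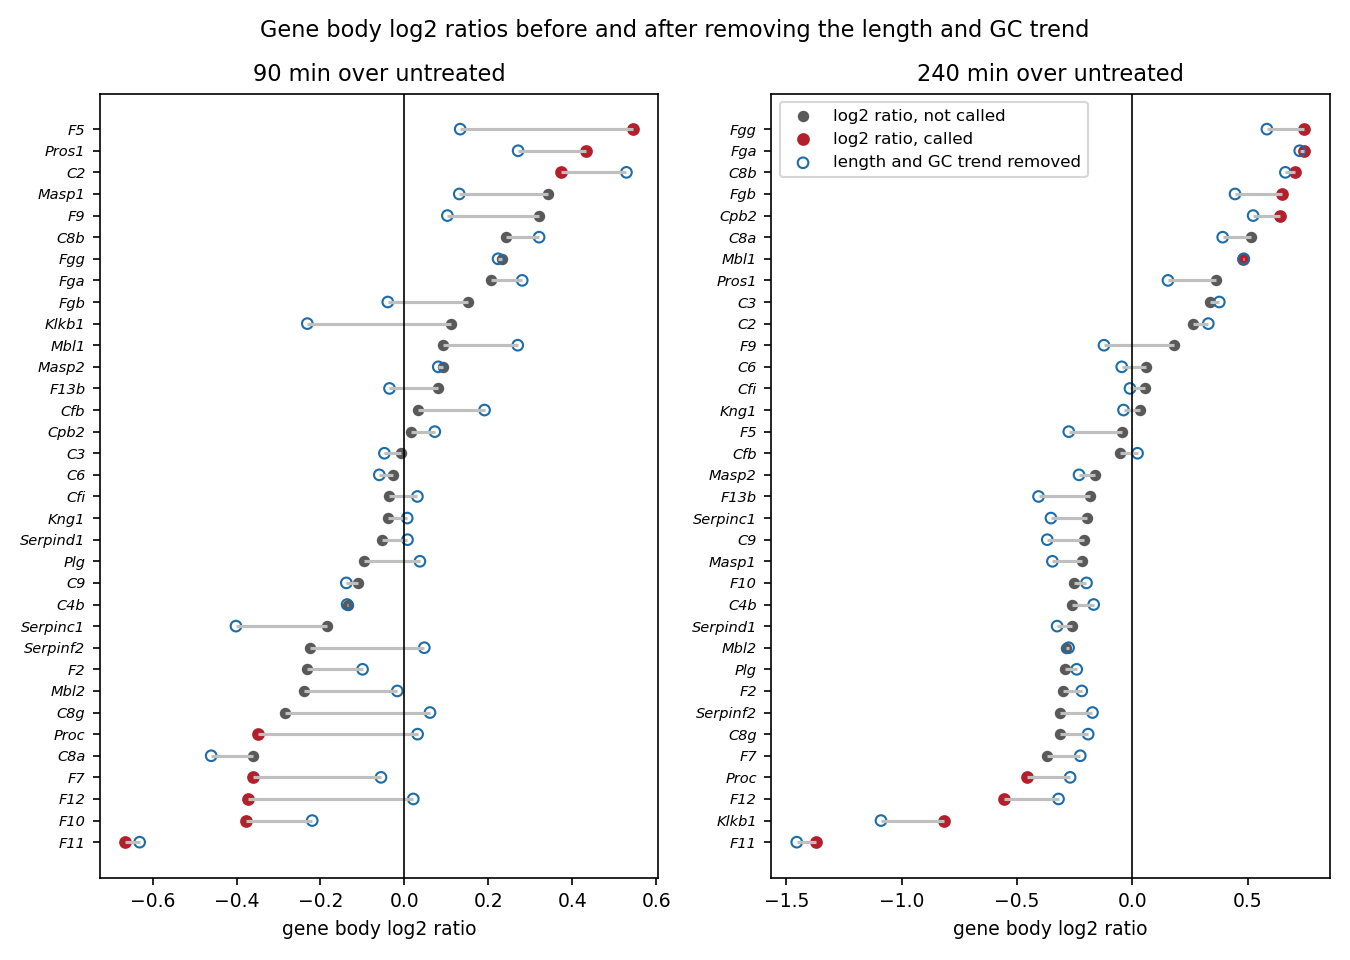
Gene body log2 ratio of the 34 genes at 90 min and at 240 min over untreated (filled points, red where the authors' adjusted p was below 0.05) and the same ratio after the trend with transcript length and GC content over all genes was removed (open points). At 90 min F12 moves from -0.37 to 0.02 and Proc from -0.35 to 0.03, while at 240 min every called gene keeps its sign.

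Other genes of both pathways were counted from lists. Of 17 further coagulation genes with at least 1 FPKM, 2 were called higher and 3 lower over the gene body at 90 min (15.9% and 12.5% of all measured genes), and 3 higher and 1 lower at 240 min (14.4% and 8.58%). For genes with at least 20 FPKM, which include only part of these, the shares were 10.7% and 27% at 90 min and 13.9% and 11.9% at 240 min. Lman1, a cargo receptor that carries factors V and VIII out of the endoplasmic reticulum, was 2.04-fold higher at 240 min in the authors' deposited table (adjusted p = 7.6e-10), with 96.4 FPKM at 240 min and 45.5 FPKM in untreated livers. Hgfac, which encodes a protease related to factor XII, was 2.07-fold lower at 240 min (adjusted p = 6.5e-11 in the authors' deposited table), with 34.4 FPKM at 240 min and 68.5 FPKM in untreated livers.

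Of 27 further complement genes, 4 were called higher and 7 lower over the gene body at 90 min (15.9% and 12.5% of all measured genes), and 3 higher and 3 lower at 240 min (14.4% and 8.58%). Among genes with at least 20 FPKM, a class that holds many but not all of them, 10.7% were higher and 27% lower at 90 min. At 240 min 13.9% of that class were higher and 11.9% lower. Hc, the gene of C5, was 1.59-fold higher at 90 min (adjusted p = 8.09e-07) and 1.56-fold higher at 240 min (adjusted p = 0.00431) in the authors' deposited table. C1qa, which macrophages rather than hepatocytes express, was 1.48-fold lower at 90 min (adjusted p = 0.000207 in the authors' deposited table), with 31.3 FPKM at 90 min and 46.3 FPKM in untreated livers. The macrophage marker sum given above was lower at 90 min as well (92.3 FPKM, against 117 FPKM in untreated livers, with 1 of 6 markers called lower), and its part in the C1qa value was not tested. After removal of the length and GC trend the C1qa log2 ratio at 90 min was -0.06.

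Gene body levels of liver transcription factor genes (Hnf4a, Cebpa, Cebpb, Foxa2, Stat3, Stat5a and Stat5b) were read beside the 34 genes. Cebpb, a C/EBP factor of the acute-phase response, stood at 73.3 FPKM in untreated livers and at 17.1, 22.2 and 35.6 FPKM at 30, 90 and 240 min, lower at every time (adjusted p = 3.25e-06, 1.62e-25 and 1.23e-07 in the authors' deposited table). At 90 min the nuclear receptor gene Hnf4a was 1.55-fold lower (adjusted p = 8.64e-07) and Cebpa 1.69-fold lower (adjusted p = 2.85e-06) in the authors' deposited table, and neither was called over the gene body at 30 or 240 min. After removal of the length and GC trend, the log2 ratio at 90 min went from -0.63 to -0.60 for Hnf4a and from -0.75 to -0.30 for Cebpa. Foxa2, a forkhead factor gene, was higher instead, by 1.63-fold at 90 min (adjusted p = 6.49e-06) and 1.44-fold at 240 min (adjusted p = 0.0175) in the authors' deposited table. Stat5b, whose product carries GH signals to the nucleus, was 1.55-fold lower at 240 min (adjusted p = 0.000905 in the authors' deposited table). Stat3 and Stat5a were not called over the gene body, while Stat3 introns were 2.06-fold lower at 240 min (adjusted p = 9.8e-06 in the authors' deposited table). Whether these levels bear on the 34 genes was not tested.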

How the data were processed

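RNA of 8 liver pools was sequenced as strand-specific poly-A libraries, per the labels' protocols. Per the submitters' processing notes, TopHat2, featureCounts, edgeR and the mm9 build were used, with no version named. Each deposited FPKM value averages 2 pools, as computed by the authors per the file headers. The ratio (treated over untreated), the signed fold and the adjusted p-value are the authors', per the file headers, and the method of adjustment is not given there. A count test over single libraries was planned, but the table holds group means, so no test was run and the authors' adjusted p below 0.05 is the call. A pool averages several mice, so the spread behind an adjusted p is that of pools.

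The 34 genes and the further lists were chosen with earlier results of these data known. Genes with a mean of at least 1 FPKM (introns also at least 0.01 intronic FPKM) counted as measured. Values were given in full for up to 12 called genes of each class with the smallest adjusted p, the 6 highest genes, and the lectin, C8 and fibrinogen groups, and for further pathway genes up to 4 per list; the remaining genes, transcription factors and motifs other than TTCNNNGAA were picked by role, with values in view. Some further genes of the lists are not reported here. Promoters were planned for up to 6 genes with the smallest adjusted p among those called over the gene body or introns. The gene body adjusted p alone was used to pick them. Those of F5 and C8b are not shown, and Fgb was added with its cluster. Library totals came from the FPKM steps of single reads, which gave whole reads for 37.5% to 44.3% of low values within a tolerance of 0.0005, so they are approximate, as are the read numbers. Length and GC content came from the longest GENCODE M21 transcript, matched by symbol to 96.1% of measured genes and to 34 of 34 members, and a robust regression on them was tested on simulated data before use. Alternatives were adjusted p below 0.01, at least 2-fold, the filter on low values, FPKM quotients with pseudocounts of 1 and 0.1, centring and removal of the trend. The software was statsmodels 0.14.6, scipy 1.17.1, matplotlib 3.10.9, pandas 2.3.3 and numpy 2.4.6 under Python 3.11.15.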

Additional observations from a re-analysis of the deposited data

How the results depend on the processing

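No paired analysis was possible because the table holds group means only; for the same reason leaving out a pool, other count tests and other count filters were not run, and removal of the length and GC trend was not run for introns, for which no genome of the build was used. The limits used were 1.5 times for a count and 0.1 on the log2 scale for a median or a called value of a single gene. All 34 genes passed the filter on low values, so it could change no count or median. Centring was applied to medians and to called values of single genes and shifts them by at most 0.065, so it could not pass the limit either. With adjusted p below 0.01, the coagulation counts became 2 lower over the gene body at 90 min, 3 lower over introns at 90 min and 5 lower over introns at 240 min, and the complement counts 0 higher over the gene body at 90 min, 1 higher at 240 min and 0 higher over introns at 30 min. With at least 2-fold, coagulation kept 0 higher and 0 lower over the gene body at 90 min, 0 higher and 1 lower (F11) at 240 min, and over introns 3 higher and 2 lower at 90 min and 4 lower at 240 min. Complement kept 0 higher over the gene body at 90 and 240 min and 2 higher over introns at 90 min. By the authors' ratios, the median intronic log2 value of coagulation was 0.096 at 90 min and -0.37 at 240 min. That of complement was 0.34 and -0.13 at these times. From FPKM quotients with a pseudocount of 1, the coagulation median was 0.27 at 90 min and 0.0090 at 240 min, and that of complement 0.19 at 240 min. With a pseudocount of 0.1 these were 0.62, 0.010 and 0.27, and complement at 90 min 0.84. The sign of both intronic medians at 240 min thus depended on the scaling, below 0 by the ratios and above 0 by the quotients. The quotients lack the authors' further scaling of the intronic ratios, and a pseudocount of 1 shrinks low introns. Among called values of single genes, signs turned for F12 and Proc at 90 min. With the trend removed, their gene body log2 ratios became 0.021 (F12) and 0.031 (Proc). With quotients, their intronic values became 0.0024 (F12) and 0.048 (Proc) at a pseudocount of 1. At a pseudocount of 0.1 they became 0.0030 (F12) and 0.060 (Proc). What lies behind the trend was not tested. Without values of single pools, the part that 1 pool plays in any value is unknown. The intronic values of several called genes rest on few reads. In the untreated group these were about 49 for F11, 64 for Mbl1, 71 for C8b, 90 for F9, 94 for Klkb1 and 107 for Pros1.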
